A study of Mus musculus with 8 samples.

Results

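The 10 genes described here encode cytosolic and mitochondrial heat shock proteins: Hspa1a, Hspa1b, Hspa8, Hsph1, Dnaja1, Dnajb1, Hsp90aa1, Hsp90ab1, Hspd1 and Hspe1. They were taken by gene symbol from a deposited table of 24339 genes. All 10 were present, and all 10 were among the 10447 genes that were tested, those averaging 1 FPKM or more over the libraries. FPKM counts sequenced fragments per length of transcript and per size of the library. The table comes from an RNA-seq study of cultured peritoneal macrophages, cells isolated from the abdominal cavity and plated, from C57BL/6 mice. The cells were wild type or α7nAChR-/-, that is, they lacked the alpha7 nicotinic acetylcholine receptor encoded by Chrna7, through which nicotine can act on macrophages. LPS, lipopolysaccharide, is a bacterial product that activates macrophages through a Toll-like receptor.

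Each genotype contributed 4 libraries, and each group is 1 library. All cells went through both steps of the same schedule, a first step of 15 min with nicotine or vehicle and a second of 4 h with LPS or vehicle. The vehicle libraries received vehicle in both steps. The nicotine libraries received 10 µM nicotine and then vehicle, the LPS libraries received vehicle and then 100 ng/ml LPS, and the nicotine and LPS libraries received both agents in turn. The labels do not say how many mice were pooled, whether a genotype's libraries share mice, or whether the knockout mice were littermates of the wild type.

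Heat shock proteins are chaperones, which bind other proteins while these fold, assemble or recover from stress. HSP70 proteins hold exposed stretches of a client and release them in a cycle driven by ATP. J-domain proteins (HSP40) deliver clients and start that cycle, HSP110 proteins recharge it by exchanging the nucleotide, and HSP90 proteins take over late folding steps of kinases and receptors. In mitochondria, Hspd1 (HSP60) and Hspe1 (HSP10) form the chamber and the lid of a folding cage. When unfolded proteins build up, heat shock factor 1 (Hsf1) is known to bind the heat shock element, an array of GAA units in alternating orientation, and to raise transcription of many of these genes.

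The promoter windows show how these genes carry that element, and which of them share sequence or position. RefSeq windows on GRCm38.p6, from 250 bases before to 50 bases after an annotated start, were found for 7 of the 10 genes and not for Hspa8, Hsp90aa1 and Hsp90ab1. They were searched on both strands for GAANNTTC or TTCNNGAA, which are each their own reverse complement, and for longer runs of the same units in phase. Of all 32851 windows in that table, 15.1% held a run of at least 2 units, 0.603% a run of at least 3 and 0.0244% a run of at least 4. Of the 7 genes, 6 had a run of at least 2 units, 3 of at least 3 and 2 of at least 4. A gene was counted if any of its windows held the run, and some genes had several windows. The shares are per window, so they are no like-for-like background. The genes are also not independent: the 4-unit runs of Hspd1 and Hspe1 are the same site, and the Hspa1a and Hspa1b windows are near copies. The stretches below are written 5′ to 3′ on the strand of the named gene, with the run in capitals; they are matches of letters and no measurement of binding.
Hspa1a: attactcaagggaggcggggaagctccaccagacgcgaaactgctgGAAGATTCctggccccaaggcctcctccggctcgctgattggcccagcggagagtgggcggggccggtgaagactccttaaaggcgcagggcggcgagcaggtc
Hspa1b: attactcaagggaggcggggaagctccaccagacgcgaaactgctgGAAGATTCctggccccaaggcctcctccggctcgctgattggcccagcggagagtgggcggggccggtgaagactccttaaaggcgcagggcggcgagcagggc
Hspe1: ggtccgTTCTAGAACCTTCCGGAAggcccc
Hsph1: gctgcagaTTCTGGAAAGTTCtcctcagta
Dnaja1: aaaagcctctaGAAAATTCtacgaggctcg

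The Hspa1a stretch is chr17:34972157-34972306 on the minus strand and the Hspa1b stretch is chr17:34959239-34959388 on the minus strand, in each case the 150 bases before the start. They are shown in full because they are nearly the same: 149 of 150 bases were identical, and 296 of 300 over the whole windows. Both hold GAAGATTC from 104 to 97 bases before the start. The genes lie 9952 bases apart in GENCODE release M21 (Hspa1b from 34956436 to 34959238, Hspa1a from 34969190 to 34972156). The Hspe1 stretch, chr1:55088053-55088082 on the plus strand, holds a run of 4 units from 89 to 72 bases before the Hspe1 start. Hspe1 and Hspd1 are transcribed away from each other and their annotated spans (55088132 to 55091307 and 55077835 to 55088243) overlap by 112 bases. Read from the other strand, this run is also the 4-unit run of an Hspd1 window, 144 to 127 bases before the Hspd1 start at 55087932; the window of a second Hspd1 start, at 55088243, had no match. The Hsph1 stretch, chr5:149636279-149636308 on the minus strand, holds a run of 3 units that begins 36 bases after the start at 149636336. The window of that start also holds a run of 2 units, from 33 to 26 bases before it. Relative to another Hsph1 start, at 149636315, the 2-unit run lies 54 to 47 bases before and the 3-unit run begins 15 bases after. The Dnaja1 stretch, chr4:40722333-40722362 on the plus strand, holds 2 units that begin 124 bases before the start at 40722468, and the windows of the other 2 Dnaja1 starts had none. Neither Dnajb1 window held a match.

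Some facts of the whole series bear on every value below. Depth in read counts is not known, so no counting error can be given. The commonest ratio of low values to those of wild type vehicle was shared by at most 18.7% of low genes. Whether low values lie on whole count steps was not tested. Summed FPKM ran from 413052 to 854016 over the 8 libraries and was highest in the 2 libraries with LPS alone. Chrna7, the deleted gene, was listed at 0 in all 8 libraries, so it does not check the genotype labels. The 8 macrophage markers (such as Adgre1, Csf1r and Lyz2) summed to 20661 to 35785 FPKM with none at 0, against 191 to 403 for 7 B cell markers and 9.84 to 22.5 for 7 T cell markers. Most of the macrophage sum was Lyz2, at 17576 to 32448 FPKM. Of the 8 macrophage markers, 1 rose and 2 fell with LPS, and 1 rose and 1 fell with nicotine. Neutrophil markers (7 genes) summed to 34.4 to 183 FPKM. With LPS 3 of 7 B cell and 1 of 3 tested neutrophil markers rose, and with nicotine 1 B cell and 2 of 6 T cell markers rose and 1 neutrophil marker fell. The sum of 10 control genes (such as Actb, B2m and Eef1a1) was 8989 to 12616 FPKM without and 14613 to 19159 with LPS. Most mast cell markers tested rose with LPS and with nicotine. Some resident peritoneal markers fell with nicotine, and none was called with LPS. Mesothelial and fibroblast markers were high in 1 library, wild type with both agents. Values of these lists are given with the results. In such bulk RNA, fewer cells of a type and less RNA per cell cannot be told apart.

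Among the HSP70 genes, the inducible pair Hspa1a and Hspa1b had the widest range. Hspa1a was at 0.654 FPKM in wild type vehicle, 21.7 after nicotine, 14.8 after LPS and 54.9 after both, and at 1.81, 11.1, 24.3 and 32.2 FPKM in the same order in the knockout. Hspa1b was at 0.740, 28.9, 23.0 and 93.0 FPKM in the wild type and at 2.69, 16.0, 27.4 and 46.4 FPKM in the knockout. For both genes the 2 vehicle libraries were lowest and the 2 libraries with both agents highest. The ratio of the highest to the lowest library was 84.0 for Hspa1a and 126 for Hspa1b; it rests on a lowest value under 1 FPKM. These near-identical copies share reads, so their division is uncertain; Hspa1b was 1.13 to 1.69 times Hspa1a in FPKM in every library. Hspa8, the constitutive HSP70 of the cytosol (HSC70), was the most abundant of the 10 in every library. It was at 512, 1308, 2378 and 2295 FPKM in wild type vehicle, nicotine, LPS and both, and at 603, 1089, 2162 and 1890 FPKM in the knockout. All 4 LPS-treated libraries were above all 4 others for Hspa8, also after each library was rescaled to a common FPKM sum of 1000000. Between LPS alone and both agents the direction depended on that scaling: as deposited Hspa8 was slightly lower with both agents in each genotype, and after rescaling it was 1.17-fold higher in the wild type and 1.19-fold higher in the knockout.

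The HSP70 partners had lower levels. Hsph1, the HSP110 nucleotide exchange factor, was at 13.4, 66.9, 34.2 and 123 FPKM in wild type vehicle, nicotine, LPS and both, and at 18.5, 78.1, 45.0 and 121 FPKM in the knockout. Every nicotine-treated library was above every other library for this gene. Dnajb1, the J-domain protein that accompanies inducible HSP70, was at 12.2, 47.4, 30.3 and 60.7 FPKM in the wild type and at 13.1, 31.1, 42.8 and 50.3 FPKM in the knockout. Dnaja1, a J-domain protein of another class, was at 16.7, 54.9, 68.7 and 78.9 FPKM in the wild type and at 22.7, 48.3, 102 and 74.7 FPKM in the knockout. Its highest library was knockout LPS, and its LPS-treated and other libraries did not overlap as deposited.

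The pair of cytosolic HSP90 genes differed in range. Hsp90aa1, the inducible form, was at 53.9, 570, 330 and 1063 FPKM in wild type vehicle, nicotine, LPS and both, and at 64.2, 478, 323 and 894 FPKM in the knockout. Its nicotine-treated libraries were all above the others. Hsp90ab1, the constitutive form, was at 353, 881, 981 and 1259 FPKM in the wild type and at 465, 847, 947 and 1126 FPKM in the knockout. The ratio of Hsp90ab1 to Hsp90aa1, which no scaling of a whole library can change, was 6.54 and 7.24 in the vehicle libraries of wild type and knockout. It was 2.97 and 2.93 with LPS, 1.55 and 1.77 with nicotine and 1.18 and 1.26 with both. In each treatment the 2 genotypes lay closer to each other than to any other treatment.

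For the mitochondrial folding cage, Hspd1 was at 42.1, 174, 123 and 158 FPKM in wild type vehicle, nicotine, LPS and both, and at 53.5, 209, 114 and 180 FPKM in the knockout. Hspe1, its lid, was at 46.4, 124, 87.1 and 132 FPKM in the wild type and at 67.6, 157, 105 and 153 FPKM in the knockout. For both genes all 4 nicotine-treated libraries were above all 4 others, and vehicle was lowest in each genotype. The ratio of Hspd1 to Hspe1 stayed between 0.791 and 1.41.

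**Figure D1:**
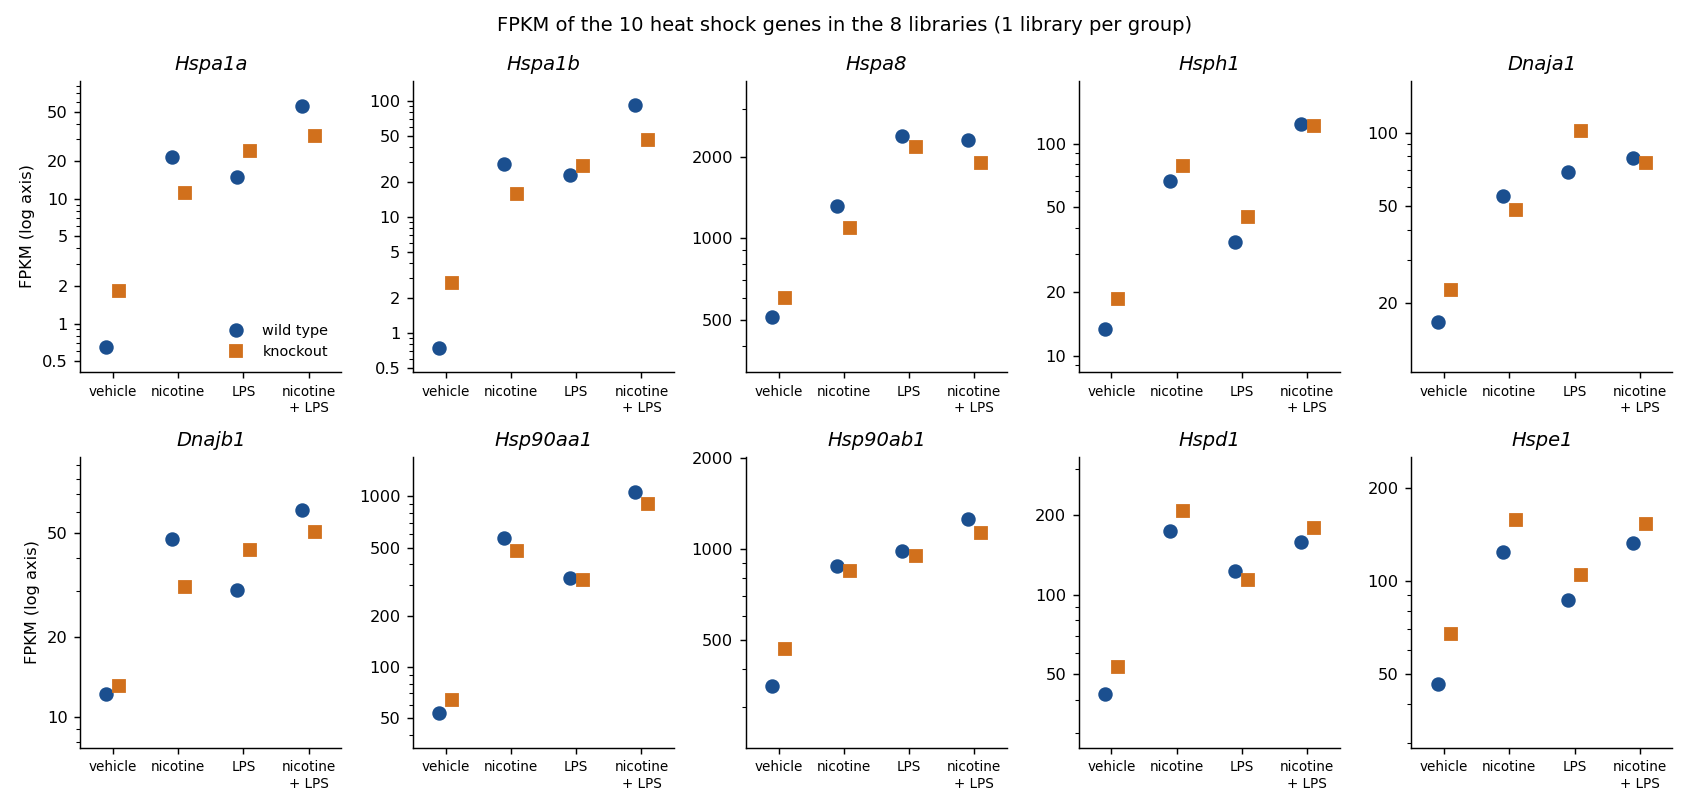
FPKM of each of the 10 genes on a log axis for the 4 treatments; circles are wild type and squares knockout libraries, 1 point per library, with no error bar because each group is 1 library. In every panel the 2 vehicle libraries are the lowest of their genotype; Hspa1b spans 0.740 to 93.0 FPKM and Hspa8 512 to 2378.

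The 10 genes together made up 0.254% of the summed FPKM in wild type vehicle, 0.619% after nicotine, 0.512% after LPS and 0.810% after both agents. In the knockout the shares were 0.297%, 0.566%, 0.456% and 0.728%. Their sum was 1051 FPKM in wild type vehicle and 5319 with both agents, and 1312 and 4568 in the knockout. Hspa8 was 36.7% to 58.4% of that sum. Hsp90aa1 was 5.13% of it in wild type vehicle, 8.11% with LPS, 17.4% with nicotine and 20.0% with both; in the knockout it was 4.89%, 8.29%, 16.1% and 19.6%.

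**Figure D2:**
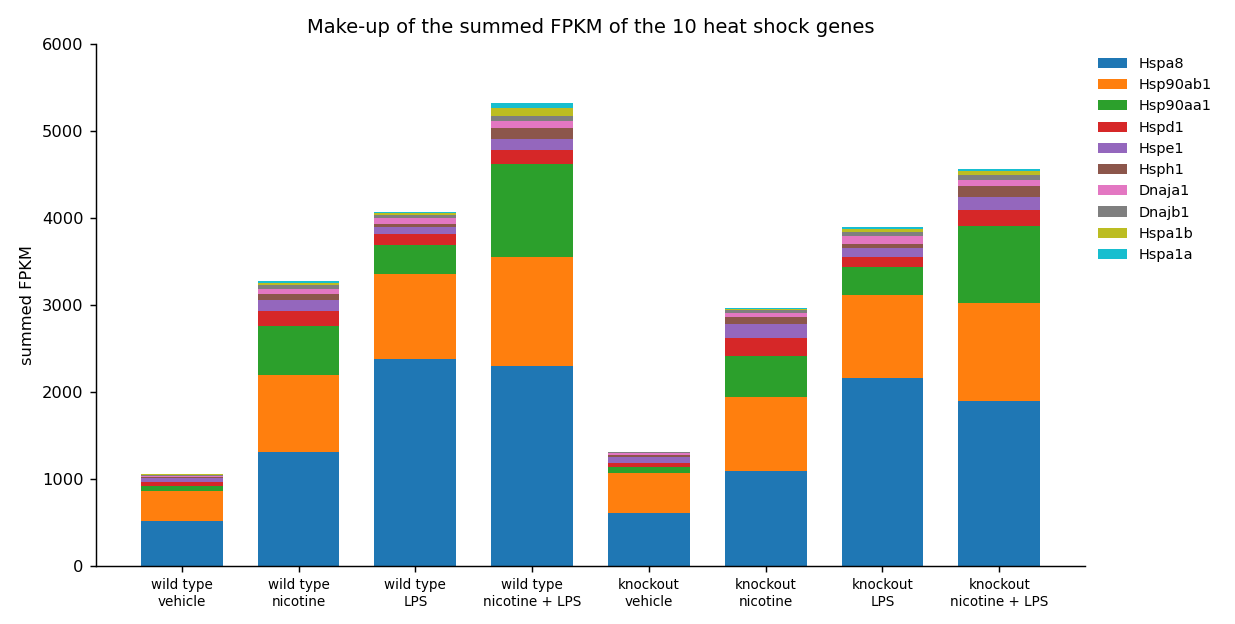
Summed FPKM of the 10 genes in each of the 8 libraries, stacked by gene, on a linear axis from 0. Hspa8 is the largest block in every bar, and the Hsp90aa1 block is tallest in the 4 nicotine-treated libraries, where it is 16.1% to 20.0% of the bar.

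The LPS effect asks how these genes differ between macrophages with and without the bacterial stimulus. It was estimated on log2(FPKM + 1) as the average over nicotine and genotype, with limma's moderated test and Benjamini-Hochberg adjustment over all 10447 genes at 0.05. Of the 10 genes, 8 rose and none fell; of all genes tested, 15.8% were called higher and 11.3% lower. The median log2 change was 1.16 for the 10 genes and 0.02 for all genes. The cytosolic genes rose: Hspa1b by 2.47 ± 0.48 (log2 change ± SE, adjusted p = 0.0161), Hspa1a by 2.30 ± 0.47 (0.0183), Hsp90aa1 by 1.68 ± 0.33 (0.0156) and Hspa8 by 1.42 ± 0.26 (0.0140). Dnaja1 rose by 1.31 ± 0.33 (0.0307), Hsph1 by 1.01 ± 0.17 (0.0106), Dnajb1 by 0.98 ± 0.26 (0.0363) and Hsp90ab1 by 0.86 ± 0.20 (0.0249). Each of these 8 was higher in 4 of 4 matched pairs of libraries. The mitochondrial pair did not pass: Hspd1 was at 0.56 ± 0.31 (adjusted p = 0.198, higher in 2 of 4 pairs) and Hspe1 at 0.39 ± 0.19 (0.149, 3 of 4 pairs). These turned to -0.045 and -0.22 when each library was rescaled to the common sum. Both were called with all pairwise interactions in the model (adjusted p = 0.0116 and 0.0236), where all 10 genes were called. That model also called many more of all genes than the main fit, so the shares above are no background for 10 of 10. The 4 libraries with LPS were all above the 4 without for Hspa8, Hsp90ab1 and Dnaja1, that is 3 of 10, against 9.83% of all genes; after rescaling this held for 1 of 10, Hspa8, against 3.63%.

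The libraries with and without LPS are 4 different conditions each and no replicates. These p-values test the average effect against a spread taken from departures from additivity. Whether libraries come from separate animals is not stated, so this spread may in part be technical. The number of the 10 genes called fell to 5 without wild type vehicle, 3 without wild type LPS, and 1 without knockout vehicle or without knockout LPS. In those 4 fits the adjusted p of the calls lost lay between 0.0515 and 0.121. Rescaling to the common sum moved the median of all genes from 0.02 to -0.55 and changed the split of all LPS calls from 1648 higher and 1176 lower to 875 and 4565. Quantile scaling gave 1284 higher and 1604 lower. Under rescaling the 10 genes had a median of 0.56, and 6 of them were called; the gap between their median and that of all genes was 1.13 as deposited, 1.11 rescaled and 0.78 with quantile scaling. Hsp90ab1 (0.24 rescaled, 0.13 quantile) and Dnajb1 (0.39 and 0.73) were the calls lost under both scalings. Dnajb1 also missed the threshold without wild type with both agents or knockout nicotine (adjusted p = 0.0591 and 0.0744), and Dnaja1 without knockout nicotine (0.0521). With the matched pairs of libraries as a block, Hsp90ab1, Dnajb1 and Dnaja1 missed it (adjusted p = 0.0523, 0.0556 and 0.0576). Of 7 mast cell markers tested, 6 rose with LPS; the sum of all 8 in the list was 159 to 393 FPKM without and 210 to 755 with LPS, and their part in the result was not tested.

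The nicotine effect asks the same for nicotine given before the second step. Of the 10 genes, 8 rose and none fell; of all genes tested, 24.1% were called higher and 22.2% lower, so nearly as many genes fell as rose. The median log2 change was 1.16 for the 10 genes and -0.04 for all genes. The changes were those of Hsp90aa1, 2.35 ± 0.33 (log2 change ± SE, limma adjusted p = 0.00198), Hspa1b, 2.25 ± 0.48 (0.00994), Hspa1a, 2.02 ± 0.47 (0.0137) and Hsph1, 1.87 ± 0.17 (0.000571). Hspd1 rose by 1.24 ± 0.31 (0.0173), Dnajb1 by 1.07 ± 0.26 (0.0161), Hspe1 by 0.94 ± 0.19 (0.00780) and Hsp90ab1 by 0.70 ± 0.20 (0.0267). Each of these 8 was higher in 4 of 4 pairs. The genes that did not pass were Dnaja1, at 0.62 ± 0.33 (adjusted p = 0.164, 3 of 4 pairs), and Hspa8, at 0.49 ± 0.26 (0.169, 2 of 4 pairs). The 4 libraries with nicotine were all above the 4 without for Hsp90aa1, Hsph1, Hspd1 and Hspe1, that is 4 of 10, against 17.7% of all genes; after rescaling Dnajb1 and Hsp90ab1 joined them, 6 of 10 against 16.1%.

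Dnaja1 was called after rescaling to the common sum (0.66, adjusted p = 0.0458). With all pairwise interactions in the model both Dnaja1 and Hspa8 were called (adjusted p = 0.00496 and 0.0154), so that all 10 genes passed. No share of all genes is given for that model, so this count has no background. The difference between the LPS and nicotine effects was not tested. Without the knockout vehicle library 5 of the 10 remained called, with Hsp90ab1, Dnajb1 and Hspd1 at adjusted p = 0.0746, 0.0533 and 0.0573. Hsp90ab1 also missed the threshold without wild type nicotine, wild type with both agents or knockout nicotine (adjusted p = 0.0881, 0.0537 and 0.0832), and Hspd1 without wild type nicotine or knockout nicotine (0.0554 and 0.0534). Of the 7 mast cell markers tested, 5 rose with nicotine (Cpa3, Mcpt4, Cma1, Tpsb2 and Fcer1a). The sum of all 8 mast cell markers was 159 to 286 FPKM without and 301 to 755 with nicotine, with none at 0, and their part in the result was not tested. Gata6, a factor of resident peritoneal macrophages, was at 3.49 to 15.7 FPKM without and 0.814 to 2.45 with nicotine. Without nicotine it was at 13.8 to 15.7 FPKM in the wild type and 3.49 to 4.84 in the knockout. It was also called lower for genotype (-1.24, limma adjusted p = 0.0458). With nicotine 3 of the 7 markers of that state fell, and their part in the result was likewise not tested. The 8 mesothelial and fibroblast markers summed to 18.9 FPKM in wild type with both agents and to 0.952 to 2.56 elsewhere. Without that library the nicotine changes of Hspa1a and Hspa1b were 2.08 and 2.26 (adjusted p = 0.0344 and 0.0288).

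**Figure D3:**
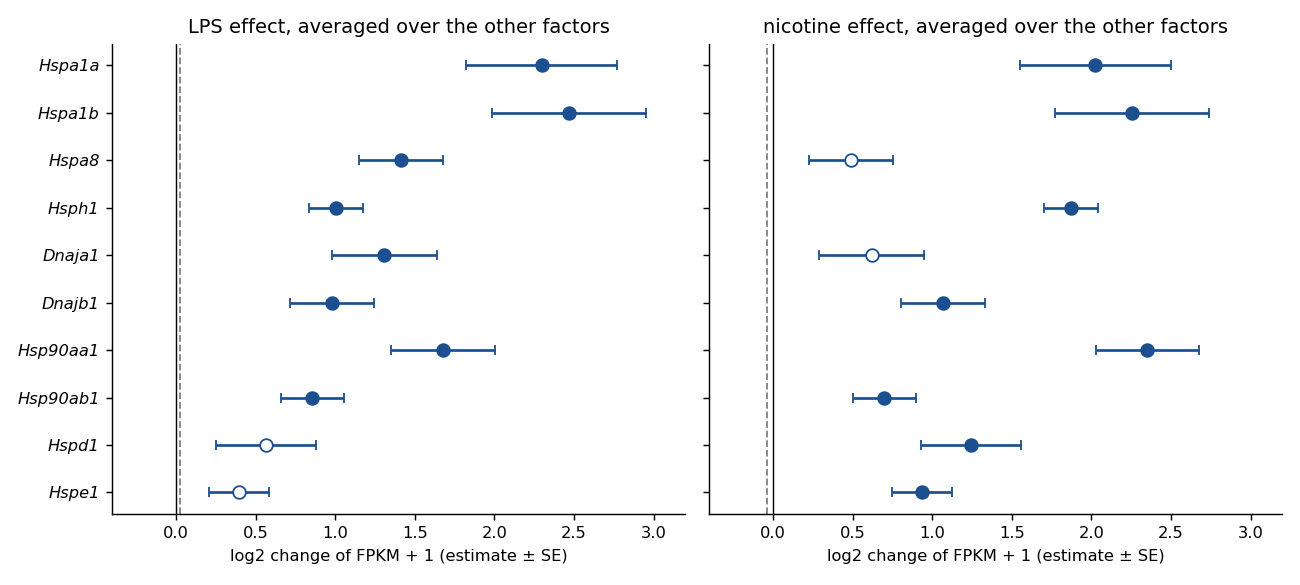
Average effect of LPS (left) and of nicotine (right) on each of the 10 genes, as log2 change of FPKM + 1 with its SE as the bar; filled points passed the adjusted threshold of 0.05, open points did not, and the dashed line is the median of all genes. Open points are Hspd1 and Hspe1 on the left, whose sign flips when libraries are rescaled to the common sum, and Hspa8 and Dnaja1 on the right.

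The design also shows how nicotine and LPS combined. LPS over vehicle was at least 2-fold higher for 9 of the 10 genes in the wild type (all but Hspe1, at 1.86-fold) and for 9 in the knockout (all but Hspe1, at 1.54-fold), against 23.4% and 21.7% of all genes that reached 5 FPKM in at least 1 library of the pair. On top of nicotine, LPS gave at least 2-fold higher values for 2 of 10 in each genotype, Hspa1a and Hspa1b, against 7.13% in the wild type and 9.27% in the knockout. After rescaling to the common sum, LPS over vehicle gave this for 5 genes in the wild type and 4 in the knockout (9.13% and 8.43% of all genes), and LPS on top of nicotine again for Hspa1a and Hspa1b. Nicotine over vehicle was at least 2-fold higher for 10 of 10 in the wild type (19.6% of all genes) and 8 of 10 in the knockout (18.0%). Under LPS, nicotine gave this for 4 of 10 in the wild type (Hspa1a, Hspa1b, Hsp90aa1 and Hsph1; 17.1% of all genes) and 2 of 10 in the knockout (Hsp90aa1 and Hsph1; 14.0%). After rescaling the nicotine counts were 8 and 5 over vehicle (11.4% and 11.8%) and 5 and 4 under LPS (24.8% and 25.9%). These contrasts of single libraries have no replicate check, and folds are ratios of FPKM + 1. They share libraries, so each vehicle or single-agent library enters 2 of them.

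In the wild type, Hspa1b was 17.2-fold above vehicle after nicotine, 13.8-fold after LPS and 54.1-fold after both; in the knockout it was 4.60-fold, 7.70-fold and 12.8-fold. Hsp90aa1 was 10.4-fold, 6.03-fold and 19.4-fold in the wild type and 7.34-fold, 4.96-fold and 13.7-fold in the knockout. Hsph1 was 4.72-fold, 2.45-fold and 8.64-fold, and 4.06-fold, 2.36-fold and 6.25-fold. For these genes the library with both agents was above either agent alone. Hspa8 reached 4.64-fold with LPS and 4.48-fold with both in the wild type, and 3.58-fold and 3.13-fold in the knockout. Hspd1 was highest with nicotine alone, at 4.07-fold against 3.70-fold with both in the wild type and 3.85-fold against 3.32-fold in the knockout. The library with both agents was above each single agent for 8 of 10 genes in the wild type (not Hspa8 and Hspd1) and for 6 in the knockout (not Dnaja1, Hspa8, Hspd1 and Hspe1). After rescaling it was so for 8 of 10 in each genotype, with Hspd1 and Hspe1 the exceptions in both. The share of all genes was not computed for these counts.

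The change with both agents was smaller than the sum of the single log2 changes for 10 of 10 genes in each genotype. After rescaling to the common sum it was so for 9 and 7 of 10. The share of all genes was not computed for these counts. The median interaction of all genes was itself negative as deposited and positive after rescaling. Tested as the interaction of LPS and nicotine, 6 of the 10 genes were called lower, against 17.3% of all genes called lower and 12.8% higher. The interaction was -1.55 for Hsp90aa1 (difference of log2 differences, limma adjusted p = 0.00729), -1.48 for Hspd1 (0.00688), -1.48 for Dnaja1 (0.0153), -1.22 for Hspa8 (0.0121), -0.79 for Hsp90ab1 (0.0458) and -0.74 for Hspe1 (0.0322). It did not pass for Hspa1a (-1.84 ± 0.64, 0.0698), Hspa1b (-1.80 ± 0.68, 0.0878), Dnajb1 (-0.93 ± 0.36, 0.0928) and Hsph1 (-0.52 ± 0.22, 0.120). Hsph1 turned to 0.10 after rescaling to the common sum, where 3 of the 10 were called. The median was -1.35 for the 10 genes and -0.11 for all genes, and -0.70 and 0.51 after rescaling, so the gap was -1.24 and -1.20. Rescaling changed the split of all interaction calls from 1332 higher and 1811 lower to 3677 and 585, and quantile scaling gave 1567 and 1261. The count of the 10 genes called was 3 without wild type vehicle, 2 without wild type nicotine and 2 without knockout with both agents. Hsp90ab1 and Hspe1 missed the threshold in each fit without 1 library except those without knockout vehicle or knockout LPS (adjusted p = 0.0829 to 0.165 and 0.0586 to 0.127). Dnaja1 missed it without wild type vehicle, wild type nicotine or knockout with both agents (0.0620 to 0.0685), and Hspa8 without the last 2 of these (0.0652 and 0.0572). Hspa8, Hsp90ab1 and Hspe1 were also lost with rescaling and with quantile scaling. The Hsp90ab1 call was lost as well with median centring (adjusted p = 0.0567), no intensity trend (0.0553), no filter on low values (0.0978) and all pairwise interactions (0.0529), and passed in 5 of 17 settings. With all pairwise interactions Hspa1a, Hspa1b and Dnajb1 were called lower (0.0162, 0.0183 and 0.0291), which made 8 of 10. No share of all genes is given for that model. Single gains were Hspa1a with quantile scaling (0.0445), Hspa1b without knockout vehicle (0.0284) and Dnajb1 without wild type LPS (0.0295).

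**Figure D4:**
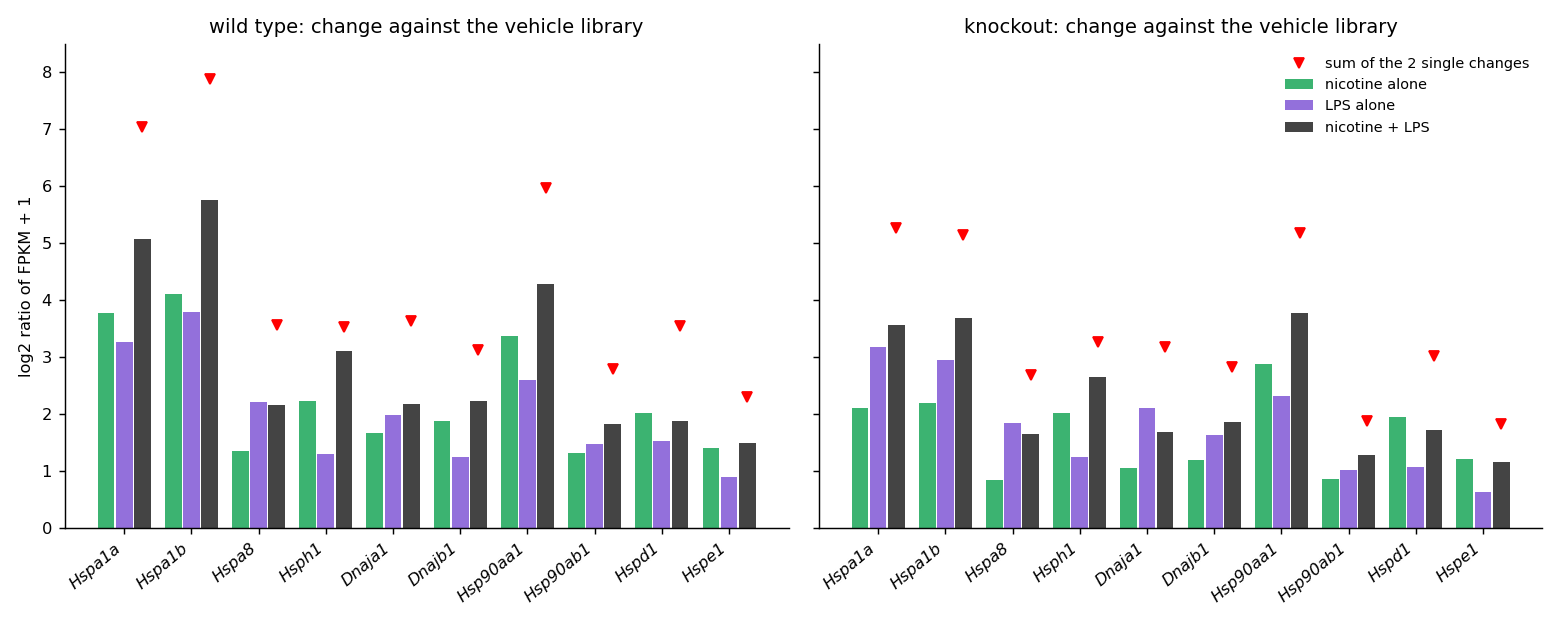
log2 ratio of FPKM + 1 to the vehicle library of the same genotype with nicotine alone, LPS alone and both (bars from 0), for wild type (left) and knockout (right); the red triangle is the sum of the 2 single changes and each bar compares 2 libraries. Each black bar is below its triangle, by 0.42 (Hsph1) to 2.14 (Hspa1b) in the wild type; after rescaling to the common sum this no longer holds for Hsph1 in either genotype or for Hsp90ab1 and Hspe1 in the knockout.

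The knockout addresses whether these levels depend on the alpha7 receptor. None of the 10 genes was called for genotype, against 0.689% of all genes called higher and 0.412% lower in the knockout by limma. The estimates ran from -0.12 ± 0.48 for Hspa1b to 0.34 ± 0.19 for Hspe1, which was higher in the knockout in 4 of 4 pairs (adjusted p = 0.550). The nicotine effect differed most between genotypes for the inducible HSP70 pair. Hspa1a was 13.7-fold above vehicle with nicotine in the wild type and 4.29-fold in the knockout, from a lower vehicle level in the wild type. In the nicotine libraries it was lower in the knockout (11.1 against 21.7 FPKM, and 32.2 against 54.9 with LPS), and without nicotine it was higher there (1.81 against 0.654 FPKM, and 24.3 against 14.8 with LPS). The interaction of genotype and nicotine was -1.56 ± 0.82 for Hspa1a and -1.57 ± 0.84 for Hspa1b, and neither passed (limma adjusted p = 0.99994 for both). None of the 10 genes passed for this interaction or for that of LPS and genotype, in this fit or in any alternative run, and of all genes 0% did. At an unadjusted p under 0.05 the first had 22 genes higher and 42 lower and the second 59 and 53. In both main fits the interaction of LPS and nicotine was left in the residual spread. With 1 library per group, genotype and preparation of the cells cannot be told apart.

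Of 98 other genes of the chaperone network in 8 lists, 81 passed the filter on low values. With LPS 18 of the 81 rose and 1 fell (median log2 change 0.30), against 15.8% of all genes called higher and 11.3% lower. With nicotine 24 rose and 10 fell (median 0.18), against 24.1% and 22.2%; none was called for genotype. For the interaction of LPS and nicotine 4 were higher and 24 lower, against 12.8% and 17.3%. The shares of all genes called are the background of the single lists below as well, for the values as deposited. They are no background for counts after rescaling or quantile scaling. With LPS, all genes shifted towards falls under both scalings, as given with the LPS effect. The LPS counts depended on scaling: after rescaling to the common sum 4 rose (Hspa4l, Dnajb6, Stip1 and Hspb1) and 27 fell, and with quantile scaling 9 rose and 5 fell. The nicotine counts were 22 and 6, and 23 and 11, under these scalings, and the interaction counts 14 higher and 5 lower, and 4 and 12. Hsf1 itself did not pass in any of these effects (0.24 with LPS, adjusted p = 0.313; 0.16 with nicotine, 0.463; -0.19 in the knockout, 0.747), and its LPS value turned to -0.33 after rescaling to the common sum. Its levels were 7.76 to 14.8 FPKM. Hsf2, a related factor, rose with nicotine by 0.66 (adjusted p = 0.0315).

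Of 16 other mitochondrial chaperones and proteases, 4 rose and 4 fell with nicotine, close to the shares of all genes (24.1% and 22.2%). Hspa9 (mortalin), the mitochondrial HSP70, rose by 2.64 ± 0.19 (log2 change ± SE, limma adjusted p = 0.000410), a larger estimate than that of any of the 10 genes. It was at 47.7, 421, 104 and 484 FPKM in wild type vehicle, nicotine, LPS and both, and at 58.1, 402, 77.0 and 434 FPKM in the knockout. Every nicotine-treated library was above every other one. Grpel2, a nucleotide exchange factor of mitochondrial HSP70, rose by 1.70 and Afg3l2, a protease of the inner membrane, by 1.05. Htra2, a protease between the mitochondrial membranes, fell by 1.66 on the log2 scale, Trap1, the mitochondrial HSP90, fell by 1.23 and Spg7, the partner of Afg3l2, fell by 0.79. With LPS, 1 of these 16 rose, the protease Yme1l1 (0.92), and after rescaling none rose and 9 fell.

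Among 8 nucleotide exchange factors and HSP70 cochaperones, 5 rose and 1 fell with nicotine. Bag3, which links HSP70 to autophagy, rose by 1.42, St13 (HIP) by 1.16 and Bag4 by 0.80, and Stub1 (CHIP), the ubiquitin ligase bound by HSP70 and HSP90, fell by 0.42. St13 also rose with LPS (0.66). Of 15 other cytosolic J-domain genes, 4 rose and 1 fell with nicotine (Dnajb4 1.67, Dnajb2 1.32, Dnajc5 0.66; Dnajb14 -0.82), and 3 rose and 1 fell with LPS (Dnajb6 1.47, Dnaja2 1.40, Dnajb2 0.60; Dnajb14 -1.06). Of 18 HSP90 cochaperones, 6 rose and 3 fell with nicotine, with Tsc1 at 1.38, Ptges3 (p23) at 1.21, Ppid at 0.96, Fkbp8 at -0.73, Aarsd1 at -0.74 and Fkbp5 at -0.89. With LPS 5 of the 18 rose, led by Stip1 (HOP), which bridges HSP70 and HSP90, at 1.58, Ptges3 at 1.02 and Chordc1 at 0.86; after rescaling 1 rose and 6 fell.

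The cytosolic folding chamber TRiC and its partner prefoldin gave 6 of 14 genes higher with LPS (Cct3 0.98, Tcp1 0.80, Cct8 0.78) and 1 higher and 1 lower with nicotine (Cct8 0.62, Pfdn1 -0.54). After rescaling none of the 14 was called higher with LPS and 2 were called lower; with quantile scaling none was called in either direction. Of 5 other HSP70 and HSP110 genes, 2 rose with nicotine (Hspa2 0.79, Hspa4 0.47) and 1 with LPS (Hspa4l 1.53). Of 9 small heat shock proteins 2 could be tested, and Hspb1 (HSP25) rose with both, by 1.30 with nicotine and 1.24 with LPS. It was at 0.670, 3.21, 4.03 and 12.1 FPKM in the wild type and at 0.482, 2.11, 1.40 and 5.43 FPKM in the knockout. Of the named LPS calls, 11 of 14 were lost in 2 to 6 of the 8 fits that left out 1 library, each of them without knockout vehicle and without knockout LPS; the exceptions were Hspa4l, Hspb1 and Dnajb14. The estimates of the 11 stayed between 0.52 and 1.79, with adjusted p up to 0.141. Of the named nicotine calls, 20 of 26 held in all 8 of those fits. The 6 others were Bag4, Cct8, Hsf2, Hspa4, Pfdn1 and Stub1, with adjusted p up to 0.125. Bag4 was lost without wild type with both agents, knockout nicotine or knockout with both agents, and Pfdn1 without wild type nicotine, knockout vehicle or knockout with both agents. Hsf2 was lost without any 1 of the vehicle and nicotine-only libraries, Cct8 and Hspa4 in each fit but that without wild type LPS, and Stub1 in each of the 8.

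**Figure D5:**
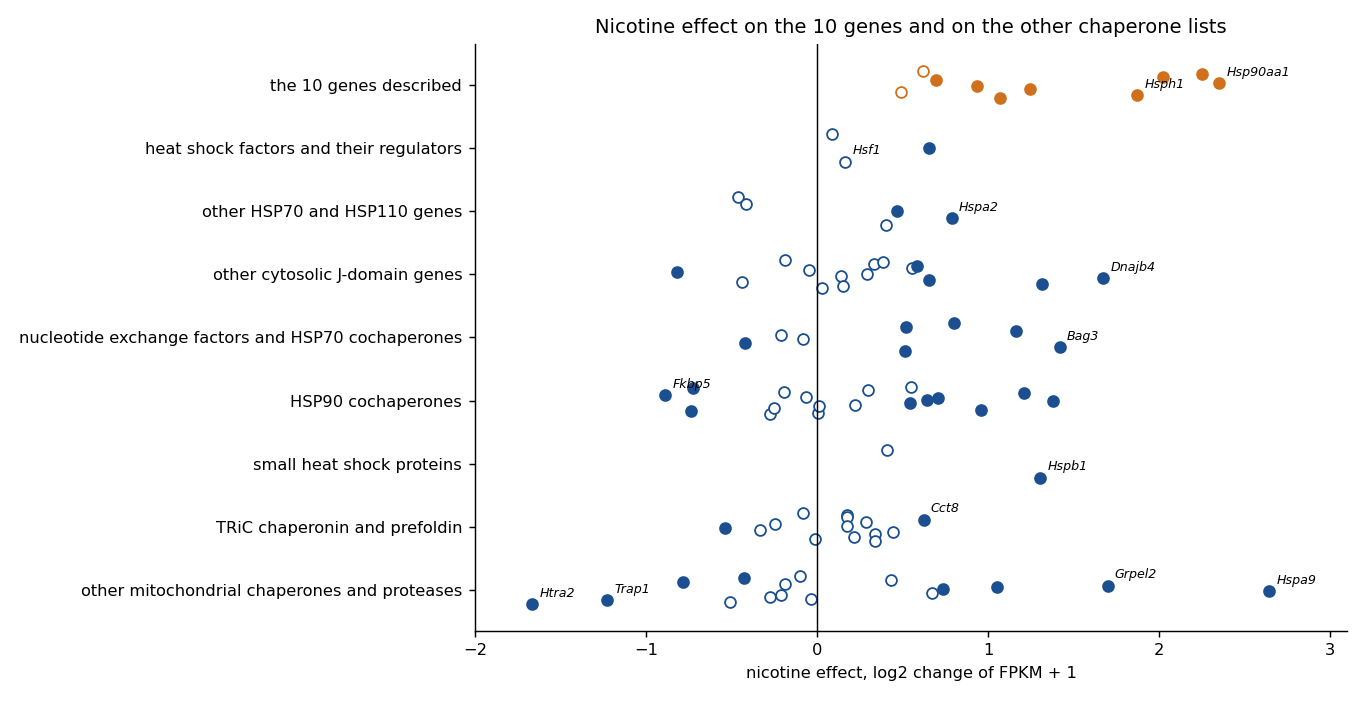
Nicotine effect (log2 change of FPKM + 1) for the 10 genes (orange) and for the tested genes of 8 other chaperone lists (blue), 1 point per gene; filled points passed the adjusted threshold of 0.05 and the vertical spread within a row has no meaning. All 10 orange points are right of 0, and the mitochondrial row runs from Htra2 at -1.66 to Hspa9 at 2.64.

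Across the 8 libraries the pattern of the 10 genes was not uniform. The Pearson correlation of log2(FPKM + 1) between pairs of them ran from 0.659 for Hspe1 and Hspa8 to 0.996 for Hspa1a and Hspa1b, which share reads. The 5 other genes closest to the mean of Hspa1a and Hspa1b were Ube2s (r = 0.988), Agfg1 (0.985), Smg8 (0.984), Crtc2 (0.982) and Eif4e (0.982). Ube2s, a ubiquitin-conjugating enzyme, was at 26.1 and 29.0 FPKM in the vehicle libraries and 164 and 146 FPKM with both agents. Closest to the mean of Hspd1 and Hspe1 were Tmed2 (0.990), Kctd3 (0.990), Traf3 (0.988), Cdr2 (0.983) and Psmc1 (0.981). Tmed2, a cargo receptor of early secretory vesicles, was at 74.6 and 83.5 FPKM with vehicle and at 153 and 188 FPKM with nicotine, where Hspd1 was also highest. These are descriptions over 8 points that share the same treatments and the highest of 10447 correlations.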

How the data were processed

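RNA from 8 groups of mouse peritoneal macrophages was sequenced from poly(A) RNA, 1 library per group; titles and characteristics gave the groups. The values are FPKM, which the authors deposited as 1 table; per the submitters' processing notes, Cuffdiff, Cufflinks, HISAT2 and CASAVA 1.8 were used on mm10. Annotation, strand setting and any scaling across libraries: not given in the sources used here. For 2 repeated symbols the line with the higher mean was kept.

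Genes averaging 1 FPKM or more were tested on log2(FPKM + 1) with limma 3.58.1 (R 4.3.3; intensity trend, Benjamini-Hochberg adjustment over all genes, two-sided). The additive model of LPS, nicotine and genotype leaves 4 residual degrees of freedom, and each interaction was added alone, leaving 3. The fits were tested on simulated data in which only the effect under test was present. That test does not cover additive fits to data that also hold an interaction of LPS and nicotine. Single library pairs were set against each other with no test, counting 2-fold differences of FPKM + 1 among genes with at least 5 FPKM in either. Alternatives changed the pseudocount, filter, scaling (quantile, median centring, or a common sum of 1000000), moderation and model, or left out 1 library. Promoters are RefSeq windows on GRCm38.p6; positions are GENCODE M21 on the same assembly. Python 3.11.15, pandas 2.3.3, NumPy 2.4.6 and Matplotlib 3.10.9 did the rest.

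The 10 genes, the lists and the tests were chosen with earlier results of these data known. From each other chaperone list the text names up to 3 rises and 3 falls per effect, those with the largest change past the threshold and the same sign in all 4 pairs; it also names Hsf1 and the 5 genes most correlated with each of 2 means, predicted and small RNA genes left out.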

Additional observations from a re-analysis of the deposited data

How the results depend on the processing

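Each value rests on single libraries, and depth in counts is unknown, so low values such as Hspa1a in vehicle carry an unknown counting error. No nicotine estimate of the 10 genes changed sign in any alternative.

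For LPS, 2824 genes were called; the count was 5440 after rescaling to the common sum, 5929 with all pairwise interactions, 520 with LPS as the sole term and 1442 with matched pairs of libraries as a block, and ran from 807 to 2331 when 1 library was left out. Of the 10 genes, 8 were called; the count was 5 with no filter on low values, 1 with LPS as the sole term, 5 with the block (without Hsp90ab1, Dnaja1 and Dnajb1), 10 with all pairwise interactions, and 1 to 8 without 1 library. For nicotine, 2805 in place of 4842 genes and 4 in place of 8 of the 10 were called with nicotine as the sole term; of the 10, 9 were called after rescaling, 10 with all pairwise interactions, 8 with the block and 5 to 8 without 1 library. For genotype, 115 genes were called, against 55 with no filter, 651 with all pairwise interactions, 19 as the sole term, 798 with the block and 13 to 172 without 1 library. For the interaction of LPS and nicotine, 3143 genes and 6 of the 10 were called; without 1 library these ran from 1077 to 3698 and from 2 to 7, and 3 of the 10 were called after rescaling and 8 with all pairwise interactions. The 5929 LPS calls with all pairwise interactions are out of 10447 genes tested. For nicotine and for the interaction of LPS and nicotine, the share of all genes called by that model is not given. Fits with fewer libraries have a smaller residual freedom. The causes of the differences between these counts were not tested.

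Among contrasts of single libraries, after rescaling LPS over vehicle was at least 2-fold for 5 of the 10 genes in the wild type and 4 in the knockout, nicotine over vehicle for 5 in the knockout, and nicotine under LPS for 4 in the knockout. Counting from 1.5-fold, LPS on top of nicotine gave 5 in the wild type and 7 in the knockout, and nicotine under LPS gave 4 in the knockout. The share of all genes was not computed at 1.5-fold, so these counts have no background.

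With quantile scaling the LPS values of Hspd1 and Hspe1 were -0.017 and -0.18, and after rescaling -0.045 and -0.22; that of Hsf1 was -0.33 and the interaction of LPS and nicotine for Hsph1 0.10. With a pseudocount of 0.1 the genotype values of Hspa1a and Hspa1b were 0.079 and 0.032. Genotype values crossed 0 when 1 library was left out: Hspa1a ran from -0.49 to 0.39, Hspa1b from -0.65 to 0.32, Hspa8 from -0.35 to 0.083, Hsp90aa1 from -0.35 to 0.17, Hsp90ab1 from -0.16 to 0.18, Dnaja1 from -0.10 to 0.45, Dnajb1 from -0.32 to 0.18 and Hspd1 from -0.062 to 0.42.

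The block matched libraries that differ only in the factor tested. No analysis paired by replicate or animal was made, because each group holds 1 library and the labels tie no libraries to a shared animal.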
